A study of Mus musculus with 24 samples.

Results

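The 31 genes described here encode enzymes of central carbon metabolism: glycolysis (15 genes), its regulators (3), the pentose phosphate pathway (4) and the tricarboxylic acid (TCA) cycle (9). The TCA group includes Idh1 and Mdh1, whose enzymes are cytosolic. All 31 genes were taken by gene symbol from a table of read counts for 55434 genes. The symbols matched 32 rows, since a second gene identifier also carries the symbol Aldoa. All samples were mouse microglia, the resident macrophages of the brain, selected from enzymatically dissociated brain with magnetic beads against CD11b. Neonatal cells were all of the MRL/lpr strain, which has a mutated Fas death receptor gene (lpr) and is used as a model of lupus. After 48 h of culture in medium containing 10% serum, they received for 6 h no cytokine, IFNg, IL-6, IFNa, TNFa, or all of these in a mixture. The labels give no cytokine doses. Adult cells came from untreated 16-week-old mice of MRL/lpr and of MRL/MpJ, the related strain without lpr, and no culture is stated for them. Each of the 8 groups had 3 libraries. The labels do not say whether these came from separate animals or cultures, so p-values measure the spread between libraries, part of which may be technical.

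Glycolysis splits glucose into pyruvate in the cytosol, and lactate dehydrogenase can turn that pyruvate into lactate. The pyruvate dehydrogenase complex instead feeds it to the TCA cycle in mitochondria, and pyruvate dehydrogenase kinases switch that complex off. The pentose phosphate pathway branches off after hexokinase and supplies NADPH and ribose. Macrophages and microglia are known to raise glycolysis on activation, and several glycolytic genes are targets of the hypoxia-inducible factor HIF-1. Flux, protein and metabolites were not measured in these samples.

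The libraries held 10.08 to 19.32 × 1e6 counted reads, and the members took between 0.384% and 1.21% of them. All 10 microglial markers had reads in every group, with a summed level of 5870 to 9000 CPM (reads of a gene per 1e6 counted reads) in neonatal libraries and 38000 to 70900 in adult ones. Fas was near the detection limit (0.493 ± 0.265 CPM in adult MRL/MpJ and 0.86 ± 0.638 in adult MRL/lpr, SD, n = 3), so the strain label could not be checked on it. The summed level of 10 immediate early and heat shock genes that respond to cell dissociation was 795 to 968 CPM in unstimulated libraries and 1080 to 2570 in the cytokine groups, highest in the mixture. Their part in the results below was not tested. In bulk RNA, fewer cells of a type and less RNA per cell cannot be told apart. Levels below are CPM scaled by the TMM method, and are compared between genes only after division by gene length in kilobases (kb).

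In unstimulated neonatal cells Pkm, the pyruvate kinase gene, had the highest level of all members at 439 CPM per kb. Aldoa (aldolase A) followed at 384 and Taldo1 (transaldolase) at 324. The lowest of the tested members were Pfkm at 4.24, Pfkp at 3.52 and Pdk1 at 1.73 CPM per kb. Glycolysis genes summed to 1910 ± 177 CPM per kb, pentose phosphate genes to 548 ± 72 and TCA genes to 355 ± 22.2 (SD, n = 3). Across the 5 cytokine groups these means ranged from 1930 to 2320, from 512 to 606 and from 303 to 317. Glycolysis thus made up the bulk of these transcripts in every neonatal group. In adult MRL/MpJ cells the sums were 679 ± 12.6, 161 ± 4.95 and 245 ± 12 CPM per kb, and in adult MRL/lpr cells 531 ± 41.5, 130 ± 7.85 and 191 ± 11.5. Adult and neonatal libraries differ in age and culture together and were scaled separately, so their levels are set side by side without a test.

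Promoters are shown for 5 of the members that rose in at least 1 of the interferon groups. Hk3, which rose with IFNg and also has a matched window, is not shown. Each line gives 250 bases before to 50 after a start annotated by RefSeq (GRCm38.p6), in the sense of the gene. Bases after the start were found in a GENCODE M21 transcript of the gene for every window shown but that of Ldha. Over all 49 member windows they were found in 39. Capitals mark every ACGTG, the core of the hypoxia response element, on either strand.
Pfkfb3, chr2:11553880-11554179, minus strand: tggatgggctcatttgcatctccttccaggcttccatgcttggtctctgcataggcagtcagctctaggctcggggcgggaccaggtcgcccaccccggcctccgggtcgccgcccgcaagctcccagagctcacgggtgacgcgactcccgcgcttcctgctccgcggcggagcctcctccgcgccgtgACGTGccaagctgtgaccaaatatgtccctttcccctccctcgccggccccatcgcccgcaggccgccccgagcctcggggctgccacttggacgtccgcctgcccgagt
Pdk3, chrX:93832101-93832400, minus strand: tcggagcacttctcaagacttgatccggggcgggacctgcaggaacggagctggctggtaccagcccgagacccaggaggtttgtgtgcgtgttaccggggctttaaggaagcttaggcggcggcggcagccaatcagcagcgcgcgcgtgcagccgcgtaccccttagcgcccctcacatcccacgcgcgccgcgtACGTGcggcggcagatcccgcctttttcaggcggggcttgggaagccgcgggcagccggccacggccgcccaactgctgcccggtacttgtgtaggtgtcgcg
Hk2, chr6:82774405-82774704, minus strand: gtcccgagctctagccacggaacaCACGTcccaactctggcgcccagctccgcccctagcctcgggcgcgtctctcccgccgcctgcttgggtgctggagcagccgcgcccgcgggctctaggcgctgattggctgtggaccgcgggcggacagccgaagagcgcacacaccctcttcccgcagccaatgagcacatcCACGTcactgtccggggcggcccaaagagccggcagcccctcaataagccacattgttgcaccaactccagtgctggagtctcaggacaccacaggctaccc
Pfkp, chr13:6648722-6649021, minus strand: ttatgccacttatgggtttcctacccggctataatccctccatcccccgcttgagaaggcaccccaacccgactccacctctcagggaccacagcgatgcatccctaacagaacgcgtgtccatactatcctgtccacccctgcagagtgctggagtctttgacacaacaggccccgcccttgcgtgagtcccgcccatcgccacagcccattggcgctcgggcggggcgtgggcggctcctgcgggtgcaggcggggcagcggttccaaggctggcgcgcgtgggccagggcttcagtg
Ldha, chr7:46845554-46845853, plus strand: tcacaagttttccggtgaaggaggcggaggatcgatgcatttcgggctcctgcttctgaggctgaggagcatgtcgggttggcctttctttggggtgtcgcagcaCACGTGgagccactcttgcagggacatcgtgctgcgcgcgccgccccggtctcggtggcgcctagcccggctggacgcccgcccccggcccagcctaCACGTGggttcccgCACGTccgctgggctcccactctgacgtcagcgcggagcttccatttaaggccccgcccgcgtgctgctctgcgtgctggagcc
The Pfkfb3 and Pdk3 windows held 1 match each, Hk2 held 2 and Pfkp held 0. Ldha held 5 by strand, 4 of them in 2 copies of CACGTG, the E-box, which contains the core on both strands. A second annotated start of Ldha had 0 matches, and a second start of Pfkfb3 had 2, both in 1 E-box. RefSeq promoters were matched for 30 of the 31 genes, in 49 windows. The core was in 23 of these windows (46.9%), belonging to 15 genes, and in 19.6% of all 32851 mouse promoter windows of the same length. The E-box was in 6 of the 49, and in 7.15% of all windows. The interferon-gamma-activated site TTCNNNGAA was in 1 member window (2.04%) and in 8.3% of all. The core of the interferon-stimulated response element, GAAA and GAAA spaced by NN, was in 0 of 49 and in 3.44% of all. Both strands were searched, and a match is a description of letters, not of binding.

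The cytokines changed a minority of the members. A change means a Benjamini-Hochberg adjusted p below 0.05 over all genes in edgeR's quasi-likelihood test. IFNg changed 6 of 31 tested members, 5 higher and 1 lower (4 and 4 with scaling to total counts), where 12.9% of all tested genes changed, 8.57% higher and 4.32% lower. IFNa changed 6, with 4 higher and 2 lower (5 and 7 with scaling to total counts), where 14.5% of all tested genes changed, 9.41% higher and 5.07% lower. TNFa changed 2, both higher (1 higher and 2 lower with scaling to total counts), where 8.10% of all tested genes changed, 4.38% higher and 3.72% lower. The mixture changed 10, with 6 higher and 4 lower (6 and 15 with scaling to total counts), where 32.0% of all tested genes changed, 15.7% higher and 16.4% lower. IL-6 changed 0 members, where 0.978% of all tested genes changed, 0.745% higher and 0.232% lower; 3 members had an unadjusted p under 0.05 with edgeR, and DESeq2 and limma-voom also called 0. As shares of the members, these counts were 19.4% for each of IFNg and IFNa, 6.45% for TNFa and 32.3% for the mixture. The shares for TNFa and the mixture were near those over all genes. The median log2 change of the members was 0.04 for IFNg, -0.12 for IFNa, -0.045 for TNFa, -0.03 for the mixture and -0.07 for IL-6, against -0.02, -0.04, -0.025, -0.05 and 0.00 over all genes. With the replicate number as a block, IFNg changed 9 members (23.7% of all genes), IFNa 9 (25.4%), TNFa 10 (17.4%), the mixture 14 (43.2%) and IL-6 2 (4.88%). All 62 member changes called with TMM and no block, adults included, kept their call with the block. By role, regulators made up 2 of the 6 IFNg changes, 2 of the 6 IFNa changes and 3 of the 10 mixture changes. Non-overlap with unstimulated libraries held for 10 members with IFNg, 12 with IFNa, 10 with TNFa, 13 with the mixture and 7 with IL-6. The share of all genes without such overlap was not computed for neonatal cells, so non-overlap below is a description only.

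**Figure D1:**
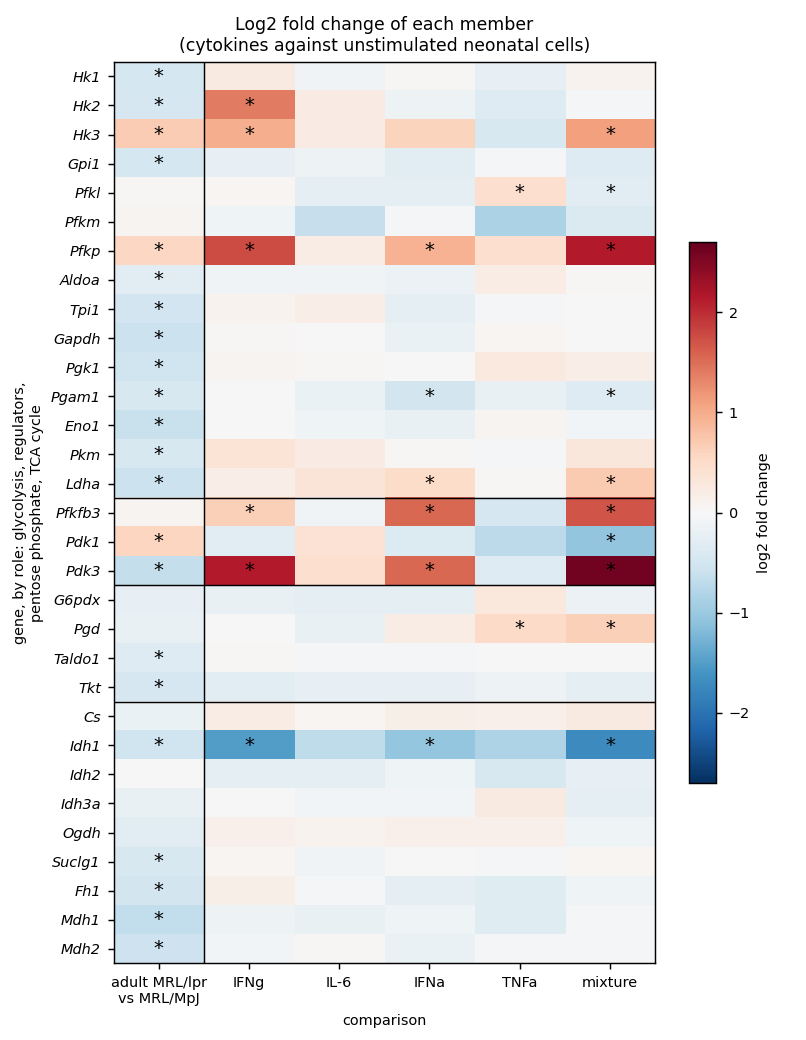
Log2 fold change (colour) of each of the 31 members (rows, ordered by role) in the comparisons (columns), with calls at an adjusted p below 0.05 marked. In the cytokine columns the strongest positive colour belongs to Pdk3 (2.61 in the mixture) and the strongest negative one to Idh1 (-1.71 in the mixture). The adult column is pale and negative for most genes.

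The regulators included the largest rise. Pdk3 (chrX:93764607-93832201, minus strand, GRCm38), a kinase that inactivates pyruvate dehydrogenase, was at 14.2, 19.3 and 18.6 CPM in unstimulated replicates. It was at 67.2, 73.1 and 89.9 CPM with IFNg, 47.6, 63.4 and 42.1 with IFNa and 115, 63.8 and 141 with the mixture. All 9 of these libraries lay above every unstimulated one, and the mixture replicates spread most. Pdk3 rose 4.41-fold with IFNg (log2 change 2.14 ± 0.25 SE, adjusted p = 2.51e-05 by edgeR). It rose 2.94-fold with IFNa (log2 change 1.55 ± 0.24 SE, adjusted p = 0.000355) and 6.12-fold with the mixture (log2 change 2.61 ± 0.25 SE, adjusted p = 9.76e-07). IL-6 libraries held 21.6, 26.3 and 24 CPM, just above the unstimulated range, and TNFa libraries 12.8, 12.1 and 15.9, and neither passed (adjusted p = 0.583 and 0.534).

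Pfkfb3 (chr2:11471433-11554077) makes fructose bisphosphate of the kind that activates phosphofructokinase. It was at 78.4, 90.9 and 90.6 CPM without cytokine, 133, 129.9 and 144 with IFNg, 263, 297.5 and 201.5 with IFNa and 289, 289 and 262 with the mixture. These 3 cytokine groups did not overlap the unstimulated one, and every IFNa and mixture library stood above every IFNg library. Pfkfb3 rose 1.57-fold with IFNg (log2 change 0.65 ± 0.17 SE, adjusted p = 0.0177), 2.93-fold with IFNa (log2 change 1.55 ± 0.17 SE, adjusted p = 1.87e-05) and 3.23-fold with the mixture (log2 change 1.69 ± 0.17 SE, adjusted p = 1.83e-06). The IFNg call was lost without unstimulated replicate 1 (adjusted p = 0.0833) or IFNg replicate 3 (0.0727) and with scaling to total counts (0.0626). Compared directly, IFNg was 1.87-fold below IFNa (adjusted p = 0.00509). IL-6 libraries held 84.9, 71.3 and 86.9 CPM and TNFa libraries 49.5, 59.3 and 80.8, and neither passed (adjusted p = 0.959 and 0.133).

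Pdk1, another kinase of pyruvate dehydrogenase and a known HIF-1 target, was low throughout, at 13.6, 14.8 and 11.8 CPM unstimulated and 7.503, 6.49 and 5.35 with the mixture. IFNg libraries had 12.05, 13.9 and 6.85 CPM, IL-6 libraries 16.85, 20.97 and 14.7, IFNa libraries 10.7, 12.4 and 7.999 and TNFa libraries 8.94, 9.86 and 5.99. The mixture and TNFa libraries all lay below the unstimulated ones. Pdk1 was 2.08-fold lower with the mixture (log2 change -1.06 ± 0.27 SE, adjusted p = 0.00605). With TNFa it missed the threshold (adjusted p = 0.139) and passed with the replicate block (0.00499). Pdk3 and Pdk1, which act on the same complex, had changes of opposite sign under the mixture.

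**Figure D2:**
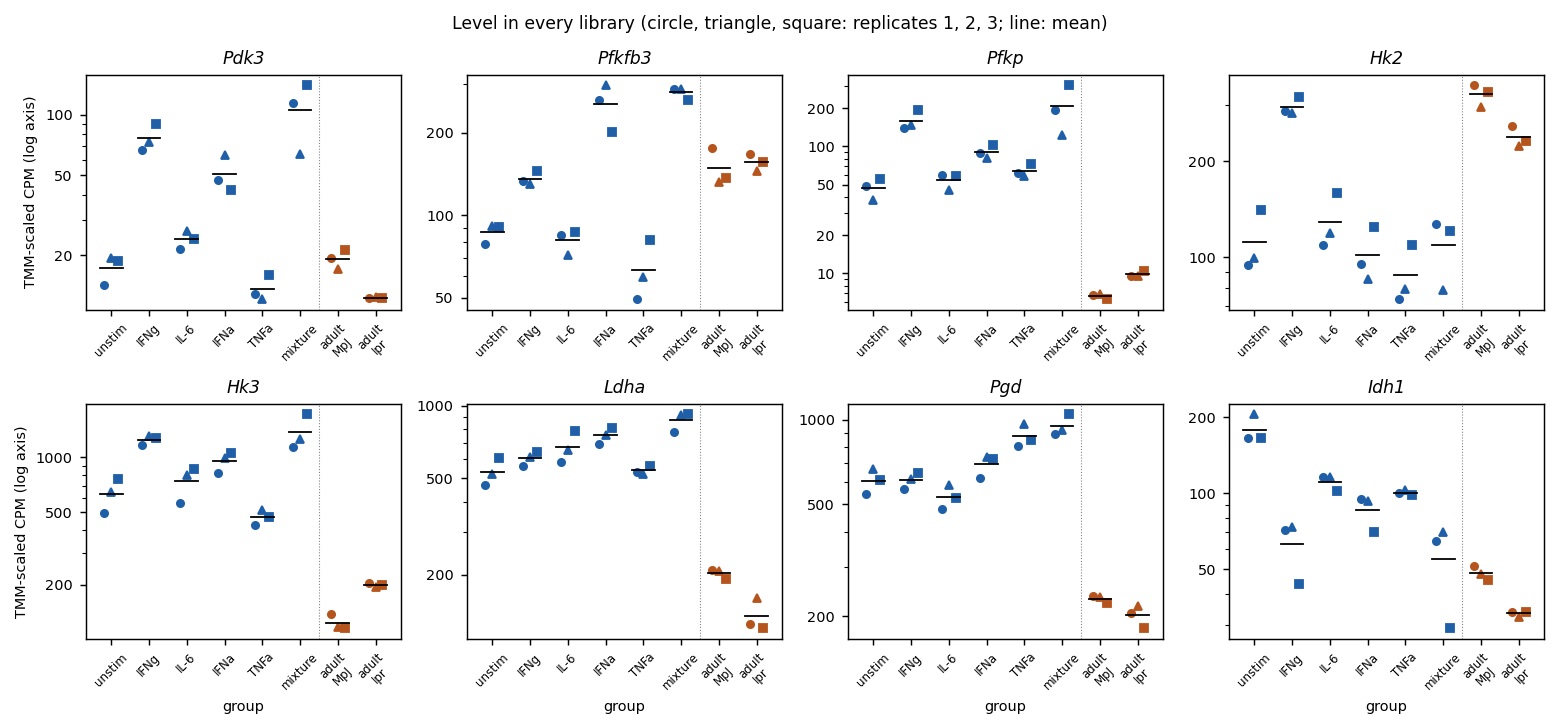
TMM-scaled CPM (log axis) of selected members in every library of the 8 groups, with replicates as points and group means as lines. Pdk3, Pfkfb3 and Pfkp stand above unstimulated cells with both interferons and the mixture, Hk2 stands out with IFNg, and the Idh1 points of every cytokine group lie below the unstimulated ones.

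Hexokinase catalyses the first step of glycolysis. Hk2 (chr6:82725025-82774454), the inducible isozyme that binds mitochondria, was at 94.5, 99.01 and 140.5 CPM unstimulated and 287, 284 and 317 with IFNg. With the mixture, which also contains IFNg, it was at 127, 78.7 and 121 CPM. IL-6 gave 109, 119 and 159 CPM, IFNa 94.9, 85.45 and 125 and TNFa 73.9, 79.6 and 109.5. The IFNg libraries stood above all other neonatal libraries. Hk2 rose 2.66-fold with IFNg (log2 change 1.41 ± 0.225 SE, adjusted p = 0.000454). For the mixture the estimate was near 0 (log2 change -0.03 ± 0.22 SE, adjusted p = 0.951). Tested directly, the mixture was 2.71-fold below IFNg alone (log2 change -1.44 ± 0.23 SE, adjusted p = 0.000507), and IFNg was 2.91-fold above IFNa (log2 change 1.54 ± 0.23 SE, adjusted p = 0.000917).

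Hk3 (chr13:55005985-55021385), an isozyme of myeloid cells, was at 495, 643.5 and 755 CPM unstimulated and 1164, 1298 and 1277 with IFNg. The mixture gave 1131, 1254 and 1714 CPM, IFNa 819, 992 and 1051, IL-6 565, 796 and 858 and TNFa 423, 513 and 472. The IFNg, IFNa and mixture libraries all exceeded the unstimulated ones. Hk3 rose 1.97-fold with IFNg (log2 change 0.98 ± 0.195 SE, adjusted p = 0.00266) and 2.16-fold with the mixture (log2 change 1.11 ± 0.195 SE, adjusted p = 0.000323). With IFNa it just missed the threshold (log2 change 0.595 ± 0.19 SE, adjusted p = 0.0501) and passed with the replicate block (adjusted p = 0.000179). Hk1, the housekeeping isozyme, ranged from 73.9 to 133 CPM over the neonatal libraries and passed in none of the comparisons with unstimulated cells. With the block Hk3 was also lower with TNFa (log2 change -0.41, adjusted p = 0.0083). Per kb, Hk3 made up 85% ± 1.23 of hexokinase reads in unstimulated cells, Hk2 9.27% ± 0.927 and Hk1 5.72% ± 0.335 (SD, n = 3). The Hk2 share was 12.4% ± 0.74 with IFNg and 4.65% ± 1.43 with the mixture. The family sum was 402 CPM per kb with IFNg and 402 with the mixture, compared with 202 unstimulated. The 2 groups thus had like totals made up differently; shares were not tested.

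**Figure D3:**
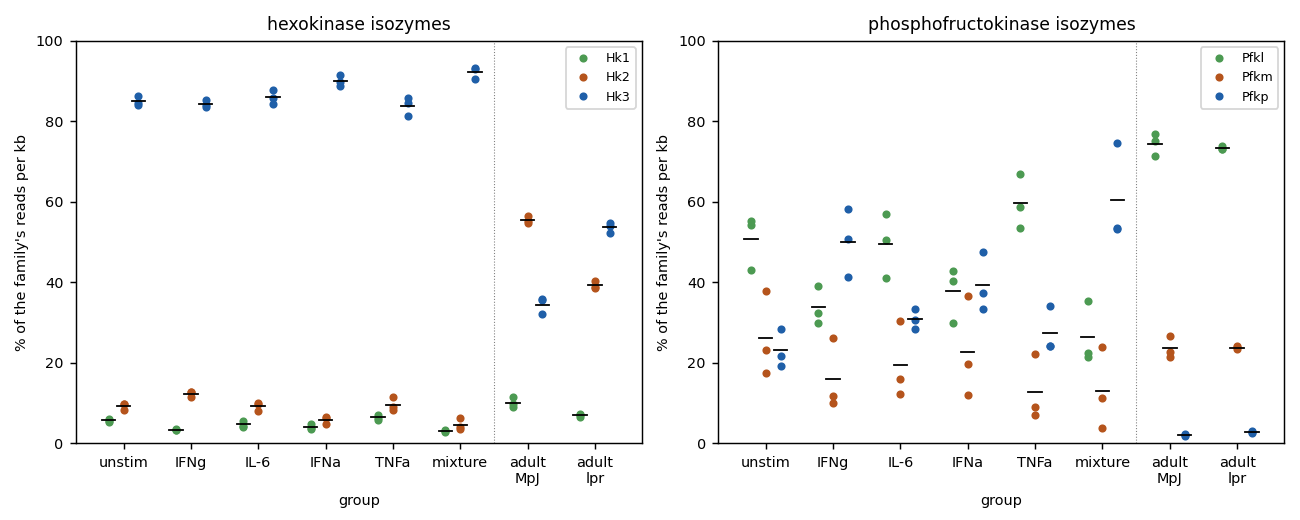
Share of each isozyme in its family's reads per kb (y axis, %) for hexokinases and phosphofructokinases in the 8 groups, with libraries as points and means of 3. Hk3 holds the largest share in every neonatal library, Hk2 and Hk3 exchange rank between the adult strains, and the mean Pfkp share is 60.5% in the mixture.

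Phosphofructokinase commits glucose carbon to glycolysis. Pfkp (chr13:6579768-6648777), the platelet-type subunit, was at 49, 37.5 and 55.01 CPM unstimulated and 139, 147 and 192 with IFNg. It was at 88.5, 80.99 and 102 with IFNa, 194, 123 and 303.5 with the mixture, 59.35, 45.8 and 58.35 with IL-6 and 62.2, 58.4 and 72.8 with TNFa. All groups but IL-6 lay above the unstimulated libraries, and the mixture spread most. Pfkp rose 3.38-fold with IFNg (log2 change 1.755 ± 0.26 SE, adjusted p = 0.000202), 1.92-fold with IFNa (log2 change 0.94 ± 0.25 SE, adjusted p = 0.0174) and 4.38-fold with the mixture (log2 change 2.13 ± 0.26 SE, adjusted p = 1.02e-05). With TNFa it did not pass (adjusted p = 0.382, and 0.0449 with the replicate block). The IFNa call was lost without unstimulated replicate 2 (adjusted p = 0.0982) or IFNa replicate 3 (0.0611). Pfkp shares 748 exon bases with Pitrm1 on the other strand, and Pitrm1 was called in none of these 3 comparisons (log2 changes -0.01, -0.19 and -0.165).

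Pfkl, the liver-type subunit, was at 54.8, 47.6 and 52.25 CPM unstimulated, 68.4, 80.5 and 62.2 with TNFa and 40.5, 40.9 and 43.5 with the mixture. IFNg gave 54.3, 56.3 and 49.4 CPM, IL-6 42.9, 42.4 and 43.96 and IFNa 39.6, 46.3 and 43.2. TNFa stood above the unstimulated range, and IL-6, IFNa and the mixture below it. Pfkl rose 1.36-fold with TNFa (adjusted p = 0.0168) and was 1.24-fold lower with the mixture (0.0446). The mixture call was lost in 11 of 15 alternatives (adjusted p 0.0563 to 0.21), among them those without unstimulated replicate 1 or 3 or mixture replicate 1, 2 or 3, and that with DESeq2 (0.0794). The TNFa call was lost in 6, without unstimulated replicate 2 (0.104) or 3 (0.0537) or TNFa replicate 2 (0.113) among them. Compared directly, the mixture was 1.69-fold below TNFa (log2 change -0.76 ± 0.11 SE, adjusted p = 0.000105).

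Pfkm, the muscle-type subunit, passed in none of the comparisons with unstimulated cells without the replicate block and differed by replicate number. With the block it was lower with TNFa (log2 change -0.93, adjusted p = 0.0105). Replicate 1 of the 6 neonatal groups held 14.2 to 24.1 CPM, and replicates 2 and 3 held 3.69 to 10.7. The 8 astrocyte markers, none at 0 reads in any neonatal group, summed to 326 to 409 CPM in replicate 1 and 37.6 to 103 in the others. Their part in the Pfkm values was not tested. Per kb, Pfkp was 23.1% ± 4.79 of phosphofructokinase reads unstimulated, 30.9% ± 2.53 with IL-6 and 27.5% ± 5.8 with TNFa. It was 39.4% ± 7.28 with IFNa, 50.1% ± 8.36 with IFNg and 60.5% ± 12.3 with the mixture. In these last 3 groups the mean Pfkp share was above that of Pfkl, the leading subunit of unstimulated cells (50.8% ± 6.73), by a narrow margin with IFNa (Pfkl 37.8% ± 6.82).

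Among the remaining glycolytic genes, Gpi1, Aldoa, Tpi1, Gapdh, Pgk1, Eno1 and Pkm passed in no comparison with unstimulated cells with TMM and no block. With the replicate block, Pkm was higher with IFNg (adjusted p = 0.000495) and the mixture (0.00148), and Gpi1 lower with IFNa (0.007) and the mixture (0.00142). Tpi1 was lower with IFNa (0.0291) and Pgk1 higher with TNFa (0.0225). With scaling to total counts and no block, Gpi1 was lower with IFNg (adjusted p = 0.00616), IFNa (0.00142) and the mixture (6.56e-06). Tpi1 (0.0117 and 0.00299) and Gapdh (0.0256 and 0.00393) were then lower with IFNa and the mixture. Aldoa (0.0093) and Eno1 (0.00852) were lower with the mixture. With TMM and no block, the log2 changes of these genes lay between -0.34 (Gpi1, mixture) and 0.37 (Pkm, IFNg). Over the neonatal libraries Gapdh ranged from 768 to 988 CPM, Aldoa from 944 to 1338, Pkm from 1865 to 3171, Pgk1 from 324 to 447.5, Tpi1 from 198 to 294.5, Gpi1 from 337 to 514 and Eno1 from 399 to 529.9. Pgam1, phosphoglycerate mutase, was at 162, 183.5 and 171 CPM unstimulated, 118, 130.2 and 119 with IFNa and 146, 128 and 135 with the mixture. IFNg gave 171, 183 and 159 CPM, IL-6 153, 141 and 161 and TNFa 147.5, 165 and 136.5. IFNa, IL-6 and mixture libraries lay below the unstimulated ones. Pgam1 was 1.41-fold lower with IFNa (log2 change -0.49 ± 0.11 SE, adjusted p = 0.00487) and 1.27-fold lower with the mixture (log2 change -0.34 ± 0.11 SE, adjusted p = 0.0243), and the mixture call was lost in 7 of 15 alternatives (adjusted p 0.058 to 0.169), among them those without unstimulated replicate 2 or 3 or mixture replicate 2 or 3.

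Ldha (chr7:46841475-46855627), whose product makes lactate, was at 468, 522 and 604 CPM unstimulated, 697, 755 and 805 with IFNa and 779.6, 916 and 919 with the mixture. IFNg gave 561, 611 and 641 CPM, IL-6 583, 657 and 783 and TNFa 533, 522 and 564. IFNa and mixture libraries were all above the unstimulated ones, and the other groups overlapped them. Ldha rose 1.64-fold with the mixture (log2 change 0.71 ± 0.13 SE, adjusted p = 0.000568) and 1.42-fold with IFNa (log2 change 0.50 ± 0.13 SE, adjusted p = 0.0166). The IFNa call was lost without unstimulated replicate 1 (adjusted p = 0.0872) or 2 (0.071), and without IFNa replicate 2 (0.0593) or 3 (0.0658). With the replicate block, Ldha also passed under IL-6 (log2 change 0.34, adjusted p = 0.013).

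In the pentose phosphate pathway Pgd passed, and with TMM and no replicate block none of the other 3 members did. Pgd (chr4:149149991-149166771), 6-phosphogluconate dehydrogenase and a source of NADPH, was at 546, 668 and 609.8 CPM unstimulated, 806.5, 969.7 and 848.5 with TNFa and 892, 924 and 1046 with the mixture. IFNg gave 567, 617 and 649 CPM, IL-6 479.8, 588 and 528 and IFNa 621, 736 and 725. TNFa and mixture libraries exceeded every unstimulated one. Pgd rose 1.44-fold with TNFa (log2 change 0.525 ± 0.13 SE, adjusted p = 0.0149) and 1.57-fold with the mixture (log2 change 0.65 ± 0.13 SE, adjusted p = 0.000864). The TNFa call was lost without unstimulated replicate 1 (adjusted p = 0.0765) or 3 (0.0521) or TNFa replicate 2 (0.0915). G6pdx, the entry enzyme, ranged from 209 to 419.9 CPM, Taldo1 from 588 to 819.7 and Tkt, transketolase, from 185 to 282 over the neonatal libraries. With the block Tkt was lower with IFNg (adjusted p = 0.017) and the mixture (0.0173). With scaling to total counts and no block, G6pdx was lower with IFNg (adjusted p = 0.0297), IFNa (0.0145) and the mixture (0.000487). Tkt was then lower with IFNg (0.0381) and the mixture (0.00137), and Taldo1 with the mixture (0.007). With TMM and no block, these 3 genes had log2 changes between -0.28 (Tkt, IFNg) and 0.28 (G6pdx, TNFa). G6pdx shares 418 exon bases with Ikbkg on the other strand.

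Of the 9 TCA genes Idh1 passed, and with TMM and no replicate block none of the other 8 did. Idh1 (chr1:65158616-65186500) encodes the cytosolic isocitrate dehydrogenase, which makes NADPH outside the mitochondria. It was at 165, 205 and 166 CPM unstimulated, 71.7, 73.1 and 43.7 with IFNg, 95.3, 93.03 and 70.01 with IFNa and 64.8, 69.9 and 29.2 with the mixture. IL-6 gave 116, 116 and 102 CPM and TNFa 100.3, 103 and 98.1. All 15 stimulated libraries lay below the lowest unstimulated one. Idh1 was 2.85-fold lower with IFNg (log2 change -1.51 ± 0.26 SE, adjusted p = 0.000893), 2.08-fold lower with IFNa (log2 change -1.05 ± 0.26 SE, adjusted p = 0.00994) and 3.27-fold lower with the mixture (log2 change -1.71 ± 0.26 SE, adjusted p = 9.61e-05). With TNFa (log2 change -0.83 ± 0.26 SE, adjusted p = 0.0592) and IL-6 (log2 change -0.69 ± 0.26 SE, adjusted p = 0.331) it missed the threshold, and it passed in both with the replicate block (0.00343 and 0.0361). With TMM and no block, Cs, Idh2, Idh3a, Ogdh, Suclg1, Fh1, Mdh1 and Mdh2 had log2 changes between -0.43 (Idh2, TNFa) and 0.24 (Idh3a, TNFa). With scaling to total counts and no block, Ogdh (adjusted p = 0.00214), Mdh1 (0.0494) and Mdh2 (0.0319) were lower with the mixture. With the block Idh2 was lower with IFNg (adjusted p = 0.0292) and TNFa (0.00141), Mdh1 lower with TNFa (0.0111) and Cs higher with the mixture (0.0301). Citrate synthase (Cs) ranged from 213 to 305 CPM, Mdh1 from 126 to 181, Mdh2 from 188 to 278, Fh1 from 39.6 to 82.2 and Idh3a from 24.04 to 56.7. Ogdh ranged from 128 to 206, Idh2 from 72.55 to 147 and Suclg1 from 52.6 to 76.4.

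Further comparisons set cytokine groups against each other. The mixture differed from IFNg alone in 5 of 31 members, 3 higher and 2 lower (3 and 8 with scaling to total counts), where 6.45% of all genes were higher and 7.83% lower. Pfkfb3 (2.06-fold), Pgd (1.56-fold) and Ldha (1.44-fold) were higher, and Hk2 and Pfkl (1.28-fold) lower. The Pfkl call was lost in 13 of 15 alternatives (adjusted p 0.0541 to 0.275), among them those without any 1 library. Ldha lost its call without IFNg replicate 1 (adjusted p = 0.0755), where the count was 3. The mixture differed from TNFa alone in 7 members, 5 higher and 2 lower (5 and 13 with scaling to total counts), where 25.2% of all tested genes changed, 12.6% higher and 12.6% lower. Pdk3 (7.81-fold), Pfkfb3 (4.43-fold), Pfkp (3.21-fold), Hk3 (2.91-fold) and Ldha (1.61-fold) were higher, and Idh1 (1.84-fold) and Pfkl lower. Idh1 lost that call without TNFa replicate 2 (adjusted p = 0.0514) or mixture replicate 3 (0.0612). IFNg differed from IFNa in 3 members, where 5.17% of all tested genes changed, 2.81% higher and 2.36% lower: Hk2 and Pgam1 (1.4-fold) were higher and Pfkfb3 lower. Pgam1 lost this call in 6 of 15 alternatives (adjusted p 0.0545 to 0.0962), among them those without IFNg replicate 1 or 2 or IFNa replicate 1 or 3. With the replicate block these counts were 7, 14 and 9, where 26.3%, 37.0% and 14.1% of all genes changed.

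Other genes of these pathways are given from wider lists. Of 23 tested glucose carriers and other glycolytic genes, IFNg changed 7 (5 higher), IL-6 1, IFNa 4 (3 higher), TNFa 4 (3 higher) and the mixture 10 (4 higher), beside 12.9%, 0.978%, 14.5%, 8.10% and 32.0% of all genes in that order. Slc2a6, a hexose carrier, went from 2.57 ± 0.917 CPM unstimulated to 43.2 ± 5.24 with IFNg, 35.2 ± 6.74 with IFNa, 88.5 ± 19.8 with TNFa and 282 ± 46.6 with the mixture (SD, n = 3). It was the 1 gene called with IL-6 (2.64-fold, adjusted p = 0.0354), a call lost in 7 of 15 alternatives (adjusted p 0.0733 to 0.318), among them those without unstimulated replicate 1, 2 or 3 or IL-6 replicate 2 or 3, and that with limma-voom (0.29). The glucose transporter Slc2a1 rose 2.11-fold with IFNg, 2.86-fold with TNFa and 3.17-fold with the mixture. It rose 1.45-fold with IFNa, where the call was lost in 7 of 15 alternatives (adjusted p 0.0516 to 0.153), among them those without unstimulated replicate 1 or 2 or IFNa replicate 1 or 2. Slc2a3, another glucose transporter, was lower with TNFa (log2 change -0.69) and the mixture (-1.30), and lost the TNFa call in 4 of 15 alternatives (adjusted p 0.0586 to 0.0993), namely those without unstimulated replicate 1 or 2 or TNFa replicate 1 or 3. Gpd2, mitochondrial glycerol-3-phosphate dehydrogenase, rose with IFNg (0.94), TNFa (1.19) and the mixture (1.49), and lost the IFNg call in 3 of 15 alternatives (adjusted p 0.0677 to 0.0901), namely those without unstimulated replicate 1 or 2 or IFNg replicate 3. Pgm1 rose with IFNa (1.14), Pfkfb4 was lower with IFNa (-0.74), and Pgm2l1 was lower with IFNg (-1.33). Pfkfb4 lost its call in 6 of 15 alternatives (adjusted p 0.0524 to 0.16), among them those without unstimulated replicate 1, 2 or 3 or IFNa replicate 1 or 2.

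Among 8 further pentose phosphate genes tested, IFNg changed 2, IL-6 0, IFNa 2, TNFa 1 and the mixture 4, beside 12.9%, 0.978%, 14.5%, 8.10% and 32.0% of all genes in that order. Rpe, the ribulose-phosphate epimerase, rose with IFNg (log2 change 0.78), IFNa (1.06) and the mixture (1.52). Prps2, which makes phosphoribosyl pyrophosphate, was lower with IFNg (-0.88), TNFa (-1.475) and the mixture (-1.13). Rpia rose with IFNa (0.81), and Shpk (-2.15) and H6pd (-1.135) were lower with the mixture. Rpe lost the IFNg call without IFNg replicate 3 (adjusted p = 0.0545). Rpia lost its call in 3 of 15 alternatives (adjusted p 0.0538 to 0.0643), namely those without unstimulated replicate 1 or 2 or IFNa replicate 2, and H6pd in 2 of 15 alternatives (adjusted p 0.0596 to 0.0625), namely those without unstimulated replicate 3 or mixture replicate 1.

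Of 35 further genes of pyruvate and TCA metabolism, IFNg changed 5 (2 higher), IL-6 0, IFNa 5 (2 higher), TNFa 3 (1 higher) and the mixture 10 (2 higher), beside 12.9%, 0.978%, 14.5%, 8.10% and 32.0% of all genes in that order. As shares of the list these counts lay near those of all genes. Acod1, whose product diverts a TCA intermediate to itaconate, had the largest rise of these lists. It went from 1.97 ± 1.33 CPM unstimulated (100 reads in all) to 704 ± 86.7 with IFNg, 203 ± 101 with IFNa, 619 ± 288 with TNFa and 3730 ± 443 with the mixture. With IL-6 it was 5.79 ± 3.53 CPM and did not pass. Pck2 was lower with IFNg (log2 change -1.04), IFNa (-0.84), TNFa (-0.82) and the mixture (-1.92). Its TNFa call was lost in 7 of 15 alternatives (adjusted p 0.05 to 0.171), among them those without any 1 library, and its IFNa call in 4 of 15 alternatives (adjusted p 0.0689 to 0.141), namely those without unstimulated replicate 2 or 3 or IFNa replicate 1 or 2. Pdk2, also a pyruvate dehydrogenase kinase, was lower with IFNg (-1.28) and the mixture (-1.80). Got1 was lower with TNFa (-1.20), Aco1 with IFNa (-0.52) and Pdpr with the mixture (-1.37), whereas Pdp2 rose with IFNa (0.64), a call lost in 6 of 15 alternatives (adjusted p 0.0516 to 0.115), among them those without unstimulated replicate 1 or 2 or IFNa replicate 1 or 3.

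Of 17 tested HIF-1 pathway genes outside glycolysis, IFNg changed 4 (3 higher), IL-6 0, IFNa 3 (1 higher), TNFa 2 (1 higher) and the mixture 6 (2 higher), beside 12.9%, 0.978%, 14.5%, 8.10% and 32.0% of all genes in that order. The shares with IFNa (17.6%) and the mixture (35.3%) were near those of all genes. Hif1a itself rose 2.82-fold with IFNg, 2.06-fold with TNFa and 3.73-fold with the mixture. P4ha1, a collagen prolyl hydroxylase, rose with IFNg (log2 change 0.55), IFNa (1.55) and the mixture (1.28), and Kdm3a with IFNg (0.60). With IFNg, P4ha1 lost its call in 6 of 15 alternatives (adjusted p 0.0583 to 0.166), among them those without unstimulated replicate 1 or 2 or IFNg replicate 2 or 3, and Kdm3a in 3 of 15 alternatives (adjusted p 0.0547 to 0.116), among them those without unstimulated replicate 3 or IFNg replicate 2. Mxi1 was lower with IFNg (-1.08), IFNa (-1.05), TNFa (-0.93) and the mixture (-1.50), and Egln1, a HIF prolyl hydroxylase, with IFNa (-0.70) and the mixture (-1.16).

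In adult microglia most of these genes were lower in MRL/lpr than in MRL/MpJ. Of 32 tested rows 23 changed, 19 lower and 4 higher (5 and 6 with scaling to total counts), where 45.7% of all tested genes changed, 24.1% higher and 21.6% lower, and the replicate block gave 25 against 50.2%. The 4 higher rows include the second Aldoa identifier, which had 0 reads in MRL/MpJ and passed the filter on low counts only through MRL/lpr; without it 3 were higher. The lower genes ranged from 1.22-fold (Aldoa) to 1.57-fold (Mdh1). The median log2 change of the members was -0.43, against 0.01 over all genes. Glycolysis contributed 11 lower genes, the TCA group 5 (among them the cytosolic Idh1 and Mdh1), the pentose phosphate pathway 2 and the regulators 1. The libraries of the strains did not overlap in 13 of 16 glycolysis rows and 7 of 9 TCA genes, or 26 of all 32 rows, where 55.6% of all tested genes did not overlap. The second Aldoa row is counted among the rows without overlap, an outcome set by its 0 reads in MRL/MpJ.

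Ldha was at 126, 160.1 and 120.3 CPM in MRL/lpr and 209, 207 and 193 in MRL/MpJ (log2 change -0.58 ± 0.12 SE, adjusted p = 0.0019). Eno1, enolase, was at 144.5, 166 and 153 CPM against 224, 257 and 219.7 (log2 change -0.60 ± 0.10 SE, adjusted p = 0.000671). Its near copy Eno1b had a log2 change of -0.65, and how reads were split between them is uncertain. Hk1, Hk2, Gpi1, Aldoa, Tpi1, Gapdh, Pgk1, Pgam1 and Pkm were lower by 1.22-fold (Aldoa) to 1.5-fold (Gapdh). Hk2 was at 258, 223 and 231.5 CPM against 346, 295.5 and 330.3 (adjusted p = 0.00404). Pgam1 was at 29.6, 34.6 and 33.2 CPM against 51.1, 34.4 and 45.7, with overlap (adjusted p = 0.0371), and lost the call in 5 of 14 alternatives (adjusted p 0.0848 to 0.392), among them those without MRL/lpr replicate 1 or 3 or MRL/MpJ replicate 1 or 3. Pfkl, at 128, 128 and 119.7 CPM against 108.5, 119.9 and 138, and Pfkm did not pass (log2 changes 0.03 and 0.06).

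The isozymes Hk3 and Pfkp were higher in MRL/lpr. Hk3 was at 206, 196 and 199 CPM against 139, 118 and 116 in MRL/MpJ (1.61-fold, log2 change 0.69 ± 0.10 SE, adjusted p = 0.000236). Per kb, the Hk2 share of hexokinase reads was 55.4% ± 0.842 in MRL/MpJ and 39.3% ± 1.02 in MRL/lpr, and the Hk3 share 34.5% ± 2.07 and 53.8% ± 1.28 (SD, n = 3). Per kb the leading isozyme thus differed between the strains, though without division by length Hk2 led in both. The family sum was 97.9 ± 7.35 and 101 ± 5.07 CPM per kb. Pfkp was low, at 9.53, 9.54 and 10.4 CPM against 6.735, 6.825 and 6.29 (1.48-fold, log2 change 0.57 ± 0.21 SE, adjusted p = 0.0417). That call was lost without any 1 of the 6 libraries (adjusted p 0.0525 to 0.151), and Pitrm1, which shares its exon bases on the other strand, was also higher (log2 change 0.70). Pfkp made up 2.87% ± 0.24 of phosphofructokinase reads per kb in MRL/lpr and 2.03% ± 0.289 in MRL/MpJ.

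The second Aldoa row (chr7:126800790-126809108, minus strand) had 14, 11 and 21 reads in MRL/lpr and 0 in MRL/MpJ. Against a floor of 3 reads over the group, it was at least 11-fold higher. It lies next to the main Aldoa gene (chr7:126795234-126800751), which was at 299, 370.2 and 298 CPM in MRL/lpr and 390.5, 417 and 376 in MRL/MpJ (adjusted p = 0.0488). The call of the main gene was lost in 7 of 14 alternatives, among them leaving out any library but MRL/lpr replicate 2.

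Of the regulators, Pdk1 was at 111, 92.2 and 102 CPM in MRL/lpr and 80.2, 57.4 and 66.1 in MRL/MpJ (higher, log2 change 0.58 ± 0.13 SE, adjusted p = 0.0037). Pdk3 was at 12.3, 12.35 and 12.25 CPM against 19.3, 17.1 and 21.2 (1.56-fold lower, adjusted p = 0.00545). The 2 kinases differed in opposite directions, each without overlap, where 55.6% of all tested genes did not overlap. Pfkfb3 was at 167, 144 and 157 CPM against 176, 132 and 137 and did not pass (adjusted p = 0.658).

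In the pentose phosphate pathway, Tkt was at 107, 111 and 105 CPM in MRL/lpr and 139.9, 161 and 142 in MRL/MpJ (1.37-fold lower, adjusted p = 0.00287). Taldo1 was at 117, 145 and 127 CPM against 168, 170.3 and 154 (1.27-fold lower, adjusted p = 0.0216), a call lost in 6 of 14 alternatives (adjusted p 0.0511 to 0.557), among them those without MRL/lpr replicate 1 or 3 or MRL/MpJ replicate 1 or 2. Both act in the branch that returns sugars to glycolysis. The NADPH-producing Pgd, at 206, 217 and 181 CPM against 236, 235 and 222, and G6pdx, at 78.96, 73.99 and 76 against 93.03, 82.9 and 92.4, did not pass (adjusted p = 0.131 and 0.0819). With the replicate block G6pdx passed (0.0496) and Pgd did not (0.0655). All 4 genes had negative log2 changes and no overlap between the strains, where 55.6% of all tested genes did not overlap.

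In the TCA group, Mdh1, cytosolic malate dehydrogenase, was at 102, 132 and 109 CPM in MRL/lpr and 169, 208 and 163 in MRL/MpJ (1.57-fold lower, adjusted p = 0.00152). Its mitochondrial partner Mdh2 was at 71.2, 86.6 and 72.8 CPM against 113, 118 and 107 (1.47-fold lower, adjusted p = 0.00155). Idh1 was at 33.85, 32.45 and 33.9 CPM against 51.4, 47.95 and 45.2 (1.44-fold lower, adjusted p = 0.00266). None of these 3 overlapped between the strains, nor did Fh1 or Suclg1, where 55.6% of all tested genes did not overlap. Fh1, fumarate hydratase, was at 35.4, 38.96 and 31.5 CPM against 55.6, 50.8 and 42.2 (1.4-fold lower, adjusted p = 0.0124), and Suclg1, a succinyl-CoA ligase subunit, was 1.35-fold lower (0.0151). Fh1 lost its call without MRL/lpr replicate 3 (adjusted p = 0.0712) or MRL/MpJ replicate 1 (0.058). Suclg1 lost it without MRL/lpr replicate 1 (0.0772) or 3 (0.0667) or MRL/MpJ replicate 1 (0.0546). Cs, Idh2, Idh3a and Ogdh did not pass, with log2 changes between -0.30 (Ogdh) and 0.00 (Idh2). With the replicate block Ogdh was lower (adjusted p = 0.0291).

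Scaling set how many adult members passed. With library totals in place of TMM, the median log2 change over all genes moved to 0.27 and that of the members to -0.17, so the members stayed -0.44 from all genes (-0.44 with TMM). Under that scaling 6 rows were higher and 5 lower. The higher ones include the second Aldoa row, which passed the filter on low counts only through MRL/lpr. The lower ones were Eno1, Gapdh, Ldha, Mdh1 and Mdh2. All 19 genes that were lower with TMM kept a negative sign. The same scaling moved the mixture's median over all genes from -0.05 to -0.47 and its members to 6 higher and 15 lower.

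**Figure D4:**
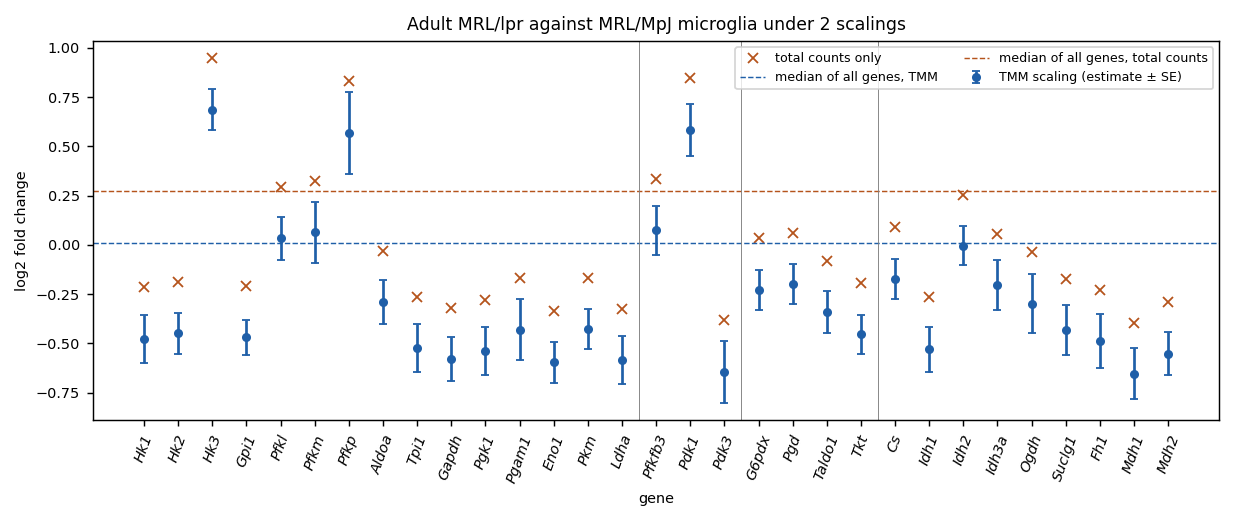
Log2 fold change of each member in adult MRL/lpr against MRL/MpJ cells by role, as TMM-scaled estimates ± SE and as estimates with total counts only, with lines at the medians of all genes (0.01 and 0.27). Most members lie below the line of their own scaling. Hk3, Pfkp and Pdk1 lie well above it, and Pfkl, Pfkm and Pfkfb3 slightly above it.

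Other measures differed between the adult groups as well. All 10 dissociation-response genes, such as Fos and Jun, were higher in MRL/lpr, with a sum of 3250 to 3600 CPM against 1180 to 1310. Microglial markers were lower in 7 of 10 (sum 38000 to 42700 CPM against 67700 to 70900) and border macrophage markers in 6 of 8 (90.5 to 168 against 297 to 364). Of 8 T and NK cell markers, none at 0 reads, 4 were higher (sum 20.6 to 23.5 CPM against 6.24 to 14.9). Of 6 B and plasma cell markers, none at 0 reads, 4 were tested and 2 were higher (sum of the 6, 531 to 681 CPM against 379 to 408). Of 6 monocyte markers, none at 0 reads, 5 were tested and 2 were higher, with overlapping sums (88.5 to 252 CPM against 120 to 133). Oligodendrocyte markers, none at 0 reads, were lower in 3 of 8, also with overlapping sums (146 to 243 CPM against 227 to 318). Of 5 tested neuron markers 1 was higher (sum of the 7, 6.65 to 18 CPM against 5.11 to 7.93, overlapping), and no tested astrocyte, endothelial, neutrophil or erythroid marker passed. The nuclear RNA Malat1 was at 1080 ± 188 CPM against 125 ± 51.7, and Gm42418, which overlaps ribosomal RNA sequence, at 1700 ± 272 against 10300 ± 5930 (SD, n = 3). Their part in the metabolic differences was not tested.

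In the wider lists, 17 of 34 pyruvate and TCA genes (50%) changed in adults, beside 45.7% of all genes, and 14 of them were lower. Pdp1 (log2 change -0.83) and Pdp2 (-0.84), phosphatases that reactivate pyruvate dehydrogenase, were lower. Pdp1 lost its call in 5 of 14 alternatives (adjusted p 0.0543 to 0.106), among them those without MRL/lpr replicate 2 or 3 or MRL/MpJ replicate 1. Acod1 was higher (3.15, with 16 reads in all in MRL/MpJ). Of 23 glycolytic genes 10 (43.5%) changed, 7 of them lower. Both shares were near that of all genes. The fructose carrier Slc2a5 was at 1120 ± 49.7 CPM in MRL/lpr and 2340 ± 219 in MRL/MpJ, and no neonatal group mean exceeded 1.28 ± 0.0886 (IFNg). Slc16a1, a lactate transporter, was 2-fold lower (adjusted p = 0.00211), and Pfkfb2 (3.33-fold) and Slc2a6 (3.2-fold) were higher. Of 8 pentose phosphate genes 3 (37.5%) changed, below the 45.7% of all genes. All 3 were lower, where 21.6% of all genes were lower: H6pd (-0.93), Prps2 (-0.60) and Prps1 (-0.51). Prps1 lost its call in 4 of 14 alternatives (adjusted p 0.0874 to 0.233), among them those without MRL/lpr replicate 1 or 3 or MRL/MpJ replicate 1. Of 17 HIF-1 pathway genes 10 (58.8%) changed, 8 of them lower. Ddit4 had the largest change among them (log2 change -3.23 ± 0.56 SE, adjusted p = 0.00645), a call lost without any 1 MRL/lpr library (0.0505 to 0.0527). Vegfa was higher (1.72), and Fam162a (-0.71) and Higd1a (-0.54) were lower. Vegfa lost its call in 2 of 14 alternatives (adjusted p 0.0551 to 0.123), among them those without MRL/lpr replicate 2, Fam162a in 5 of 14 alternatives (adjusted p 0.092 to 0.158), among them those without MRL/lpr replicate 1 or 3 or MRL/MpJ replicate 1 or 2, and Higd1a in 7 of 14 alternatives (adjusted p 0.0689 to 0.25), among them those without MRL/lpr replicate 1 or 3 or MRL/MpJ replicate 2 or 3.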

How the data were processed

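RNA of 24 libraries was sequenced after a directional library kit (NEBNext Ultra II Directional), per the labels' protocols. Per the submitters' processing notes, cutadapt 2.1, STAR 2.7.1a and the build mm10 were used. Which program counted reads, and whether by strand, is not given in the sources used here. The authors deposited raw read counts per gene, and 99.41% of the 55434 genes matched GENCODE M21 by identifier. Members and lists were chosen with earlier results of these data known.

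Adult (6) and neonatal (18) libraries were fitted separately with edgeR 4.0.16 in R 4.3.3 (filterByExpr, TMM, robust quasi-likelihood test, Benjamini-Hochberg adjustment over all genes, threshold 0.05). The SE was taken as |log2 change| over the root of F. Alternatives were DESeq2 1.42.0, limma-voom (limma 3.58.1), RLE and total-count scaling, no filter, a filter of 1 CPM in 3 libraries, all 24 libraries in 1 fit, only the groups compared, a replicate block, and leaving out each library. Deviations from group means correlated at 0.184 to 0.687 in all 45 same-numbered pairs of neonatal libraries, over the 0.1 asked for, so these numbers were taken as pairs. That pairing entered only the replicate block. The main neonatal tests compared group means and ignored it, so their counts and p-values are unpaired. In adults 2 of 3 pairs passed (0.0595 to 0.154), so the adult numbers were not taken as pairs. The 24 replicate pairs differed beyond counting noise (chi-square per degree of freedom 5.07 or more). On simulated counts the adult fit (13416 genes) recovered 68% of 2-fold and 92% of 4-fold changes, and the IFNg fit (14250 genes) 41% and 70%.

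Members called against a control and among the 4 largest changes of their role there get library values, and ranges where only adults differed. From each further list, up to 4 called genes per comparison with a control are named, except for a result not reported here. The lists of dissociation-response genes and cell markers were used as descriptions.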

Additional observations from a re-analysis of the deposited data

How the results depend on the processing

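Of 62 called member changes none reversed under any alternative. DESeq2, limma-voom and RLE scaling each kept 60, all 24 libraries in 1 fit 55, no filter 52 and total counts 46. With total counts, the number of members called was 11 in adults, 12 with IFNa, 21 with the mixture, 11 for the mixture against IFNg, 18 for the mixture against TNFa and 5 for IFNg against IFNa. DESeq2 called 5 for IFNg against IFNa and 4 with TNFa, and without a filter TNFa had 0. The replicate block kept all 62 and called 9 for IFNg against IFNa, 2 with IL-6, 14 for the mixture against TNFa and 10 with TNFa, and moved no other count by over 1.5 times. The cause of these shifts was not tested. Leaving out 1 library gave 0 to 3 members with TNFa (0 without TNFa replicate 2 or unstimulated replicate 3, 1 without unstimulated replicate 1 or 2) and 3 to 6 for the mixture against IFNg. Without division by gene length, Hk2 shares were 47.6% in adult MRL/lpr, 60.8% in MRL/MpJ, 17.9% with IFNg, 7.03% with the mixture and 13% unstimulated. Hk3 shares were then 40.2%, 23.4%, 75.1%, 86.3% and 75%. Pfkp shares became 6.34% in adult MRL/lpr, 4.51% in MRL/MpJ, 61.4% with IFNa, 70.3% with IFNg, 51% with IL-6, 78.1% with the mixture, 45.3% with TNFa and 41.8% unstimulated. On that scale Hk2 led Hk3 in both adult strains. Depth limits the values of genes with few reads, such as the second Aldoa row, at 0 reads in MRL/MpJ.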

Other observations

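The 3 regulators summed to 20 ± 2.03 CPM per kb in unstimulated cells, 49.3 ± 5.08 with IFNg, 54.8 ± 10.8 with IFNa, 79.4 ± 13.7 with the mixture, 22.3 ± 0.466 with IL-6 and 14.7 ± 2.62 with TNFa (SD, n = 3). In adults the sums were 35.8 ± 4.88 in MRL/MpJ and 38.5 ± 2.71 in MRL/lpr. Pdk1 was 1.73 CPM per kb in unstimulated neonatal cells and 8.73 and 13.1 in adult MRL/MpJ and MRL/lpr cells, so that the order of Pdk1 and Pdk3 (6.78, 7.5 and 4.8) was turned round. Hk2 was 18.7 CPM per kb in unstimulated neonatal cells and 54.3 in adult MRL/MpJ cells, and Hk3 171 and 33.8. These levels were not tested, since age and culture differ together. The second Aldoa row, which was too low to test in neonatal cells, had 38 reads in 11 of the 18 neonatal libraries. Of these reads, 11 were in TNFa replicate 1 and 9 in TNFa replicate 2.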
